A study of Mus musculus with 2 samples.

Results

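Nondividing Cdkn1a-positive cells were single sorted brain cells that carried at least 2 UMIs (unique molecular identifiers, each standing for 1 captured RNA molecule) of Cdkn1a and fewer than 4 summed UMIs of the division genes Mki67, Top2a, Birc5, Ube2c, Nusap1, Prc1 and Hmmr. The rule did not ask for microglial genes. There were 279 such cells among 7945 single cells, 58 of 3909 in the oil group and 221 of 4036 in the tamoxifen group. They were compared with the 7256 single cells of the same group that held no Cdkn1a UMI, 3700 in oil and 3556 in tamoxifen. All mice were 12 weeks old and heterozygous for Cx3cr1CreERT2(Litt), a knock-in in which the microglial fractalkine receptor gene Cx3cr1 drives a Cre recombinase that enters the nucleus when tamoxifen binds it. They had been given oil (Oil) or tamoxifen (TAM) for 4 weeks, so that the control group carried the allele too. Mice that lacked Cre and received tamoxifen were not analysed here. CD11b+ CD45+ Ly6G- CD206- cells were sorted from whole perfused brains, marked with 10 hashtag antibodies (Oil1 to Oil5, TAM1 to TAM5), pooled, and read as 1 droplet gene expression library and 1 hashtag library. A hashtag is the replicate below, and the sources used here do not say that each was a separate mouse. In the tests against cells with no Cdkn1a UMI, the p-values then reflect how far that difference varied between hashtags. In the direct test of TAM against Oil they reflect how far hashtags of a group lay apart. Either spread may be technical variation.

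Cdkn1a encodes p21, an inhibitor of cyclin-dependent kinases that stops cells before DNA replication and is a direct target of the transcription factor p53. When DNA is damaged p53 is released from its negative regulator Mdm2, itself a p53 target, and switches on genes for cell cycle arrest, apoptosis, DNA repair and metabolism. Microglia are long-lived brain macrophages that divide rarely, and p21 is also read as one of several marks of senescence.

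The letters below are the best matches to the p53 response element, a pair of decamers, in front of an annotated start of Cdkn1a and of 4 genes that rose with it in TAM, Ccng1, Rps27l, Bax and Inka2. These 4 are shown because they had a match, and not for the size of their change. The letters are from RefSeq (build GRCm38.p6) along each gene's own strand, and capitals mark every decamer that took part in a match, some of which overlap, within the 250 bases before an annotated start. Cdkn1a has 2 such promoters, and the matches lay in 1 of them, at chr17:29090876-29090967 on the plus strand.
Cdkn1a: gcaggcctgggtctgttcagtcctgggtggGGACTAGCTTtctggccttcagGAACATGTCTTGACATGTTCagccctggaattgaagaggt
Ccng1, at chr11:40755432-40755511 on the minus strand, had 1 mismatch to the consensus in its best pair.
Ccng1: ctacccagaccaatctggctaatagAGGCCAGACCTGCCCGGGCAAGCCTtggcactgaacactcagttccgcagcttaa
Rps27l, at chr9:66946266-66946345 on the plus strand, had 1 mismatch in its best pair. It has 2 such promoters, and this stretch lies inside the gene as annotated from position 66946086, before an internal start.
Rps27l: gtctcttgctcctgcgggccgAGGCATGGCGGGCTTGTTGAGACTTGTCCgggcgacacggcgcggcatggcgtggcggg
Bax, at chr7:45467060-45467144 on the minus strand, had 2 mismatches in either of its pairs, with 5 bases and 1 base between the decamers.
Bax: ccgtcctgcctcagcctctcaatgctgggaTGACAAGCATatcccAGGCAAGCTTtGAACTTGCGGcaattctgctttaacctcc
Inka2, at chr3:105705325-105705416 on the plus strand, had 1 mismatch and 12 bases between the decamers. It too has 2 such promoters, and this stretch lies inside the gene as annotated from position 105704599, before an internal start.
Inka2: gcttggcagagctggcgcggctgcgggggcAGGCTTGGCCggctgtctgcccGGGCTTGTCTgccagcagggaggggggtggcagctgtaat
In Cdkn1a the first and the second decamer had 0 mismatches and 12 bases between them, and the second and the last, directly adjacent, had 1 mismatch and ended 32 bases before the start. A match required the fixed C and G of each decamer, at most 2 mismatches elsewhere and a gap of at most 13 bases, and the consensus is its own reverse complement, so that both strands are covered. Such a match was held by 3.87% of the 27025 genes with a promoter in the table. Among the listed p53 targets that were tested and have a promoter there, 3 of the 7 that rose in TAM held one (Ccng1, Rps27l and Bax), and so did 1 of the 9 that did not pass (Sesn1, 2 mismatches). The other genes searched that rose came no closer than 5 mismatches (Phlda3), 4 (Mdm2 and Ephx1) or 3 (Bbc3, Aen, Map3k20 and Mgmt) in this window. A match is a description of letters and not a measured binding site.

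These cells were more frequent in every TAM hashtag than in any Oil hashtag. In Oil they made up 1.55%, 1.55%, 1.42%, 1.38% and 1.55% of the single cells of Oil1 to Oil5 (11, 10, 13, 11 and 13 cells). In TAM they made up 2.97%, 2.57%, 7.93%, 7.15% and 5.90% of those of TAM1 to TAM5 (26, 16, 75, 58 and 46 cells). The means were 1.49% ± 0.0813 in Oil and 5.30% ± 2.43 in TAM (SD, n = 5 hashtags each), and the ranges did not overlap. Since TAM and Oil levels of Cdkn1a were known when the cells were chosen, the difference is a description and was not tested. Within TAM the hashtags fell apart by the level of Xist, a noncoding RNA made from the inactive X chromosome. TAM1 and TAM2, where Xist was at 5.26 to 7.78 CPM (UMIs per 1000000), averaged 2.77%, and TAM3 to TAM5, where it was at 1533 to 1729 CPM, averaged 6.99%. In Oil the Xist-low hashtags Oil1 and Oil2 lay among the others. After every cell was thinned to 3000 UMIs the means were 0.783% ± 0.230 in Oil and 3.68% ± 1.73 in TAM, and the hashtags of the treatments still did not overlap.

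**Figure D1:**
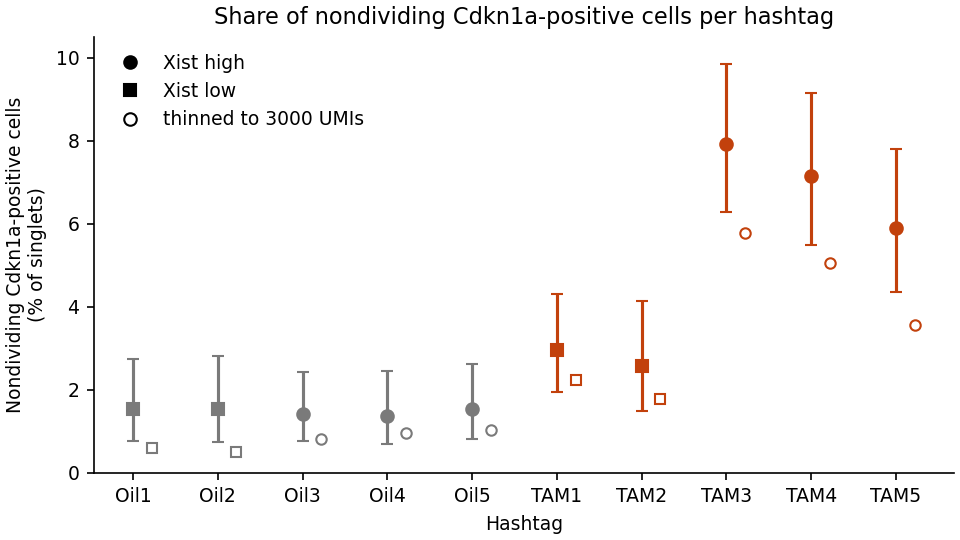
Share of nondividing Cdkn1a-positive cells among the single cells of each hashtag, in percent, with exact 95% binomial intervals that cover counting error only (filled symbols) and after thinning to 3000 UMIs (open symbols). All 5 Oil hashtags lie between 1.38% and 1.55%, the Xist-low TAM hashtags at 2.57% and 2.97%, and the Xist-high TAM hashtags between 5.90% and 7.93%.

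Most of these cells sat near the threshold, and TAM held more of those far above it. The median was 3 Cdkn1a UMIs in both treatments, with highest values of 15 in Oil and 20 in TAM. Just inside the threshold, 27 Oil and 77 TAM cells had exactly 2 UMIs, and just outside it 144 nondividing Oil and 223 nondividing TAM cells had exactly 1. Cells with 5 or more UMIs numbered 13 in Oil and 84 in TAM, which was 22.4% and 38% of the positive cells. Few of the cells kept lay close to the division limit: 267 of the 279 had no UMI of the 7 division genes, 10 had 1, 2 had 2 and none had 3. Of the 53 cells at or above the limit, 40 (75.5%) carried at least 2 Cdkn1a UMIs and were left out, the lowest division sum among them being 4. Among cells below the limit 3.5% carried at least 2 Cdkn1a UMIs. Depth was similar on either side, with a median of 5087 UMIs in the positive cells and 4899.5 in cells with no Cdkn1a UMI, but 2.15% of the former and 0.551% of the latter exceeded 10000 UMIs.

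All 14 microglial markers were detected in the positive cells of both treatments. They summed to 28100 to 31300 CPM in Oil and 24700 to 29700 CPM in TAM, against 31000 to 33800 and 30400 to 31200 CPM in cells with no Cdkn1a UMI, so that the hashtags overlapped in Oil and not in TAM. Of the 8 monocyte markers, Ly6c2, Chil3, Vcan, F10 and Fn1 were at 0 in the TAM positive cells, and the sum of all 8 was at most 95.4 CPM. Neutrophil markers summed to at most 7.41 CPM and neuronal markers to at most 8.64 CPM in any hashtag. In the 8 antigen-presenting cell markers the TAM sums ranged from 20.2 to 1960 CPM, and in the cells with no Cdkn1a UMI from 92.4 to 371 CPM, with Cd209a and Xcr1 at 0 in the TAM positive cells. Markers of CNS-associated macrophages, lymphocytes, astrocytes, the oligodendrocyte lineage and vascular cells summed to at most 292, 233, 355, 77.8 and 20.2 CPM in TAM positive cells and to at most 323, 209, 323, 64.8 and 45.4 CPM in TAM zero cells. Few of these markers were abundant enough to be tested: 4 of antigen-presenting cells, 2 each of monocytes, CNS-associated macrophages, lymphocytes and the oligodendrocyte lineage, 1 each of astrocytes and vascular cells, and none of neutrophils or neurons. Of those tested none rose in TAM positive cells, and the vascular one, Pecam1, fell. Of the 1674 barcodes that carried more than 1 hashtag and passed the cell filters, 110 (6.57%) also met the rule, at a median of 8413.5 UMIs. Undetected doublets of 2 cells from 1 hashtag would be deeper than single cells, and their part in the results was not tested.

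When all single cells were grouped by their transcripts, the positive cells did not form a cluster of their own. Of the 279 cells, 127 lay in cluster 1 and 83 in cluster 2, the largest groups, and 34 in cluster 0, which was led by the immediate early genes Fos, Egr1 and Fosb. Cluster 0 held 25 of the 58 Oil positive cells (43.1%) and 9 of the 221 TAM positive cells (4.07%), and 42.3% of all Oil and 4.68% of all TAM single cells. Cluster 4, led by Spp1, Lpl and Ccl4, held 27, which was 7.69% of its Oil cells and 17.2% of its TAM cells. Cluster 3, led by Top2a and Mki67, held 3, and clusters 5, 6 and 7 held 1, 3 and 1. Clusters were given no cell type name.

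In TAM, positive cells carried more RNA of 8 of 21 tested p53 targets than cells with no Cdkn1a UMI, and less RNA of none. Counts were summed over the positive and over the zero cells of each hashtag and fitted with edgeR's quasi-likelihood test with the hashtag as a block. Both treatments were in the same fit and shared its estimate of the spread. Of 10292 genes tested, 78 were higher (0.758% of those tested) and 21 lower (0.204%) in the TAM positive cells at an adjusted p below 0.05. The list held 32 p53 targets besides Cdkn1a, of which 11 were too rare to be tested and 13 did not pass. The median log2 fold of the tested ones was 0.87 against −0.02 over all tested genes. Phlda3 averaged 0.446 CPM in TAM zero cells and 43.2 CPM in TAM positive cells, and passed the filter on low counts only through positive cells. It counts among the 8, among the 21 and in the median, whereas targets scarce in both classes were left out. In 11 of the 21 the hashtags did not overlap with the positive cells higher, as was the case for 146 of all tested genes (1.42%). With each positive cell set against 3 zero cells of like depth from its hashtag, 4730 genes could be tested and 35 passed, all of them among the 99. Without TAM1 the count was 56, and without TAM4 it was 57.

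Phlda3, whose product restrains Akt signalling by competing for membrane lipids, differed most. It was at 22.2, 47.7, 30.3, 68.5 and 47.5 CPM in the positive cells of TAM1 to TAM5 and at 0.51, 0, 0.502, 0.61 and 0.61 CPM in the zero cells. Every positive sum lay far above every zero sum (log2 fold 6.28 ± 0.51 (SE), adjusted p = 4.77e-31, higher in 5 of 5 hashtags). Among death effectors, Bax, which permeabilises mitochondria, was at 185, 107, 234, 236 and 199 CPM in positive cells against 71.4 to 85.4 CPM in zero cells (log2 fold 1.40 ± 0.15, adjusted p = 5.62e-18). TAM2 was the lowest of the positive sums for Bax and still above all zero sums. Bbc3, the gene of the BH3-only protein Puma, was at 22.2, 59.6, 42.9, 62.2 and 56.2 CPM against 6.90 to 10.4 CPM (log2 fold 2.43 ± 0.33, adjusted p = 2.06e-10). The nuclease gene Aen rose from 14.8 ± 1.70 to 41.4 ± 12.2 CPM (SD, n = 5), by 1.36 ± 0.34 on the log2 scale (adjusted p = 0.00761). Aen did not pass without TAM1 (1.16, adjusted p = 0.152).

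Mdm2, Ccng1, Trp53inp1 and Rps27l rose as well. Mdm2, the ubiquitin ligase that degrades p53, was at 111, 83.5, 141, 128 and 117 CPM in positive cells of TAM1 to TAM5 and at 63.7 to 72.9 CPM in zero cells (log2 fold 0.87 ± 0.17, adjusted p = 7.81e-05). Ccng1, the gene of cyclin G1, which recruits a phosphatase to Mdm2, was at 81.5, 95.4, 90.8, 84.0 and 73.5 CPM against 23.8 to 34.4 CPM (log2 fold 1.63 ± 0.23, adjusted p = 2.14e-09). Neither set of hashtags overlapped. Trp53inp1, a stress-induced p53 cofactor with a part in autophagy, was at 29.6, 95.4, 103, 103 and 130 CPM against 18.5 to 28.1 CPM (log2 fold 1.89 ± 0.23, adjusted p = 4.03e-13). Its value in TAM1 lay just above the zero cells, and the other 4 lay far above them. Rps27l was at 164 ± 24.3 CPM in positive and 82.2 ± 7.54 CPM in zero cells (log2 fold 1.07, adjusted p = 2.14e-09). Its reads may be split with those of its close paralog Rps27 in the deposited counting.

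The other 13 targets did not pass, and neither did Trp53, the gene of p53 itself. Zmat3, an RNA-binding target, was at 20.8 ± 4.20 CPM in positive and 8.64 ± 1.26 CPM in zero cells (log2 fold 1.29 ± 0.43, adjusted p = 0.164), with no overlap of hashtags. The sestrin genes Sesn2 and Sesn1, which act in nutrient sensing, had log2 folds of 1.05 and −0.31, and the Noxa gene Pmaip1 had one of 0.97, none of which passed. Btg2, an antiproliferative target that is also an immediate early gene, had a log2 fold of −0.07. Trp53 was at 81.8 ± 20.4 CPM in positive and 82.3 ± 6.23 CPM in zero cells (log2 fold −0.10 ± 0.19, adjusted p = 0.988), and the p53 regulator genes Mdm4 and Ppm1d had log2 folds of 0.40 and 0.17 (adjusted p = 0.252 and 0.974). Of 18 regulators of p53 and of DNA damage signalling none passed, with a median of −0.00 and 1 of 18 at an unadjusted p below 0.05. Among the 11 targets too rare to be tested were Gdf15, Eda2r, Plk2 and Fas, at mean levels of 1.48, 2.37, 4.33 and 1.87 CPM in the TAM positive cells.

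**Figure D2:**
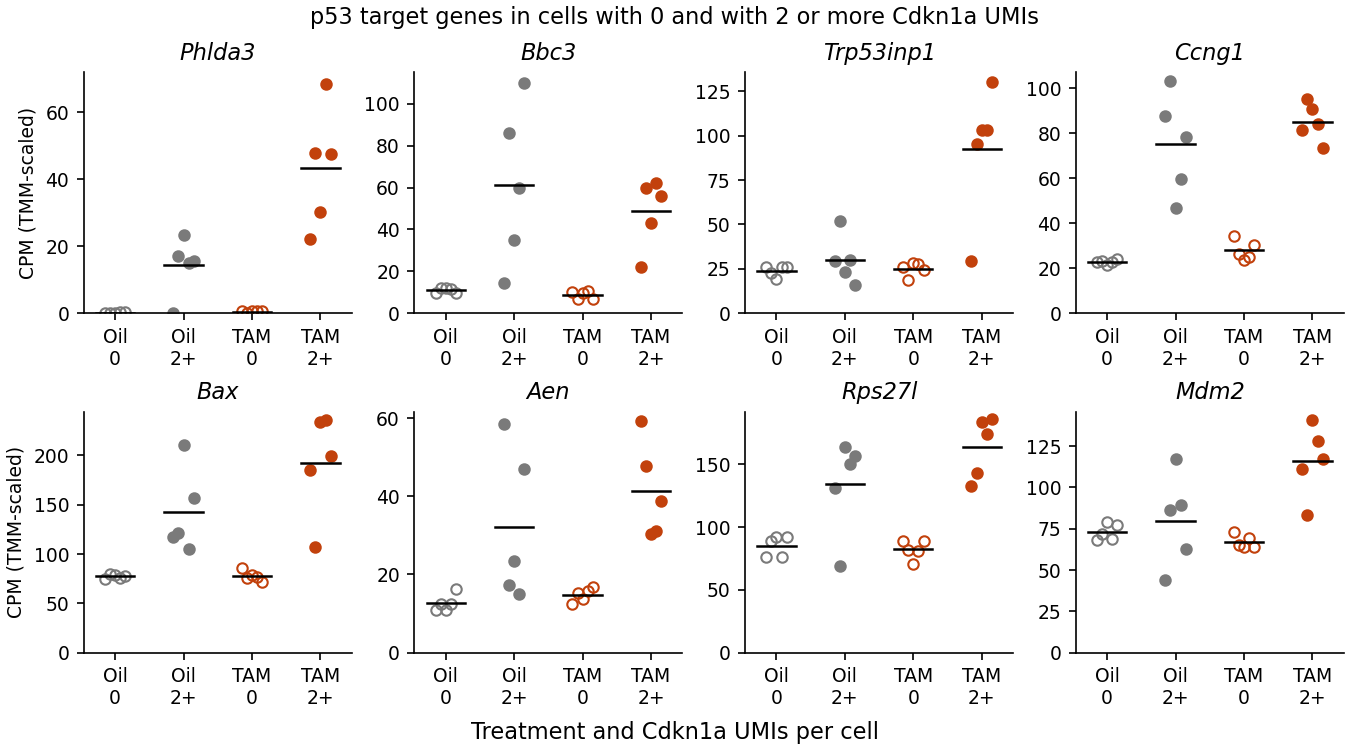
Level of 8 p53 target genes in each hashtag, in CPM scaled by TMM factors, for cells with 0 Cdkn1a UMIs (open points) and nondividing cells with 2 or more (filled points) in Oil (grey) and TAM (orange), with the mean of the 5 hashtags as a bar. In TAM the filled points lie above all open points for each of the 8 genes, and in Oil they do so for Bbc3, Ccng1 and Bax and overlap the open points for the other 5.

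Counted per cell in TAM, Phlda3 and Inka2 were found mostly in cells with several Cdkn1a UMIs. At least 1 Phlda3 UMI was found in 36 of 221 TAM positive cells (16.3%, exact 95% interval 11.7% to 21.8%), in 2 of 223 nondividing cells with exactly 1 Cdkn1a UMI (0.897%) and in 8 of 3556 zero cells (0.225%). Inka2, which encodes an inhibitor of the kinase Pak4, was found in 29 of 221 positive cells (13.1%), 3 of 223 cells with 1 Cdkn1a UMI (1.35%) and 12 of 3556 zero cells (0.337%). In Oil, Inka2 was found in 2 of 58 positive cells (3.45%), 0 of 144 cells with 1 Cdkn1a UMI (exact 95% interval up to 2.53%) and 5 of 3700 zero cells (0.135%), and did not pass (adjusted p = 0.152). After thinning to 3000 UMIs Phlda3 was found in 11% of positive and 0.124% of zero cells, and Inka2 in 8.10% and 0.216%. Bax, the RNA of which is more abundant, was found in 64.3% of positive cells, 43.9% of those with 1 UMI and 29.9% of zero cells. Intervals and shares cover counting error only, and cells of 1 hashtag are not replicates.

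The level of several targets followed the number of Cdkn1a UMIs per cell in TAM. Phlda3 averaged 0.388, 1.68, 23.7, 41.1 and 66.0 CPM over the 5 hashtags in nondividing cells with 0, 1, 2, 3 to 4 and at least 5 Cdkn1a UMIs. Bax averaged 75.5, 115, 122, 189 and 257 CPM in the same order, and Trp53inp1 24.3, 36.0, 67.4, 72.2 and 138 CPM. Bbc3, Rps27l, Aen and Inka2 also had means in that order. The exceptions among the 8 targets were Ccng1, which was highest at 3 to 4 UMIs (111 CPM, against 90.8 CPM at 5 or more), and Mdm2, which was at 65.4 CPM with 0 and with 1 UMI and at 140 CPM with 5 or more. Trp53 showed no such order (80.4, 86.8, 85.8, 85.5 and 70.7 CPM). Neighbouring levels often lay within 1 SD of each other, as for Phlda3 at 3 to 4 (SD 32.9) and at 5 or more (SD 42.5), and no trend was tested, since the levels were cut from the gene that chose the cells. Median depth at 2, 3 to 4 and 5 or more UMIs was 5111.5, 5066 and 5242 UMIs over both treatments.

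**Figure D3:**
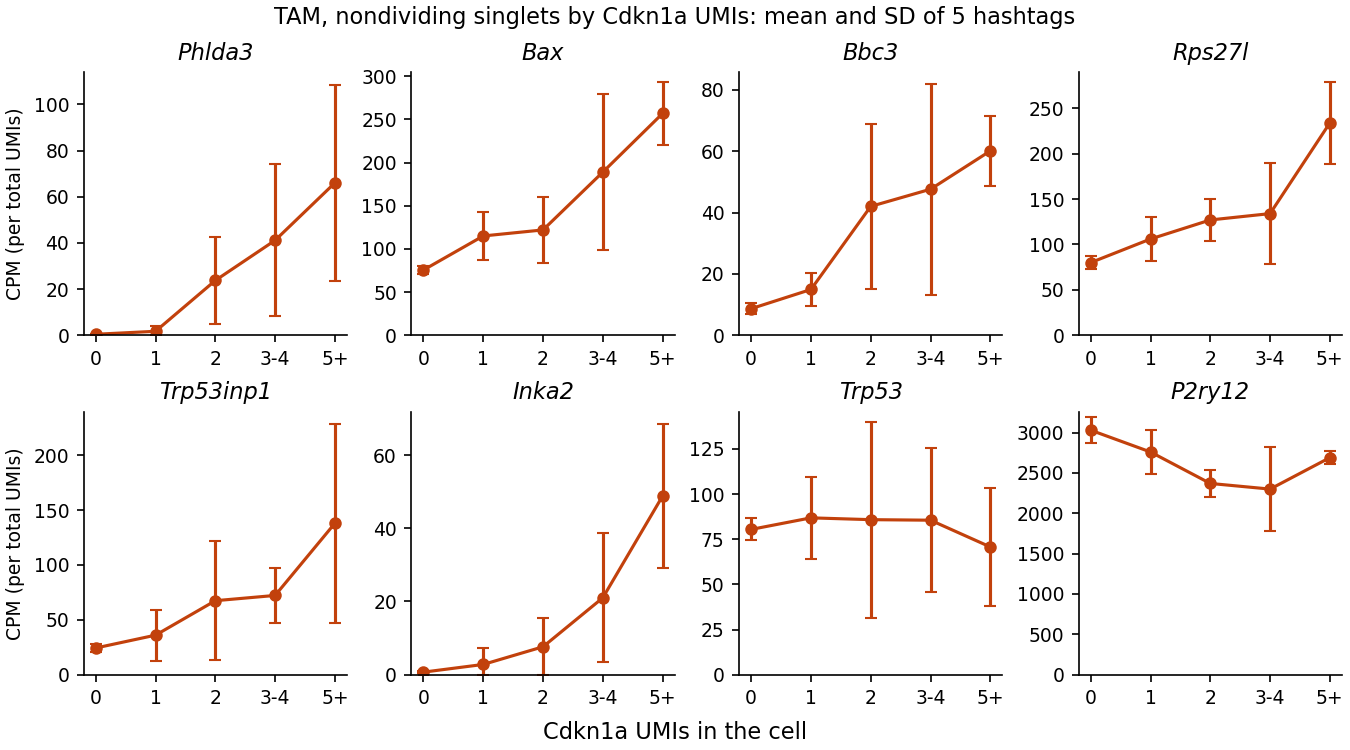
Mean level of 8 genes in TAM by the number of Cdkn1a UMIs per nondividing cell, in UMIs per 1000000 total UMIs, with the SD of the 5 hashtags as bars. Phlda3, Bax, Bbc3, Rps27l, Trp53inp1 and Inka2 step up from 0 to 5 or more UMIs, whereas Trp53 stays between 70.7 and 86.8 CPM and P2ry12 is lowest, at 2300 CPM, at 3 to 4 UMIs.

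Outside the p53 list, the strongest rises in TAM positive cells were of mixed function. Inka2 was at 22.2, 23.9, 22.7, 28 and 30.3 CPM in TAM1 to TAM5 against 0.305 to 1.09 CPM in zero cells, with no overlap (log2 fold 5.15 ± 0.56, adjusted p = 3.50e-17). The long noncoding RNA Gm42047 (chromosome 8, positions 121833247 to 121841178 on the plus strand of GRCm38) was at 117 ± 51.8 CPM in positive and 7.44 ± 1.62 CPM in zero cells (log2 fold 3.96 ± 0.28, adjusted p = 2.96e-40). The uncharacterised gene D630023F18Rik and the noncoding RNA Gm13067 rose by 5.70 and 4.78 on the log2 scale from means of 0.541 and 0.374 CPM. Inka2, D630023F18Rik and Gm13067, like Phlda3, were too scarce in TAM zero cells to pass the filter on low counts there. Pvt1, a long noncoding RNA beside Myc, was at 292 ± 64.5 CPM against 137 ± 17.1 CPM (log2 fold 1.17 ± 0.12, adjusted p = 9.57e-19). Exoc4, a subunit of the exocyst that tethers secretory vesicles, was at 718, 596, 880, 881 and 791 CPM against 396 to 426 CPM (log2 fold 0.93 ± 0.09, adjusted p = 2.52e-22). For all of these but D630023F18Rik, which was at 0 in 1 TAM hashtag, the hashtags did not overlap. Mgmt, which repairs alkylated guanine, rose by 1.57 on the log2 scale, Map3k20, a kinase that responds to stalled ribosomes, by 1.82, and Ephx1, a microsomal epoxide hydrolase, by 1.62. Ephx1 did not pass without TAM3 (1.66, adjusted p = 0.0845) or without TAM4 (1.49, adjusted p = 0.173). Ifi27l2a, an interferon-induced gene, was at 126, 59.6, 174, 143 and 117 CPM against 11 to 30.9 CPM (log2 fold 2.45 ± 0.22, adjusted p = 2.17e-24), and it was the only one of 17 tested interferon response genes that passed.

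The genes that fell in TAM positive cells included homeostatic surface genes of microglia, by small amounts. Of 25 homeostatic genes tested, 3 fell (Csf1r, P2ry12 and Crybb1), none rose and 22 did not pass, with a median log2 fold of −0.14. Csf1r, the receptor that microglia need for survival, was at 2160, 2130, 2200, 2210 and 2270 CPM in positive cells and at 2760 to 2860 CPM in zero cells (log2 fold −0.35 ± 0.08, adjusted p = 0.0014). P2ry12, the ADP receptor that guides their processes, was at 2450, 2080, 2580, 2510 and 2720 CPM against 2910 to 3300 CPM (log2 fold −0.32 ± 0.08, adjusted p = 0.00425). The hashtags did not overlap for either gene, and P2ry12 did not pass without TAM4 (−0.32, adjusted p = 0.0916). Cx3cr1, the locus of the knock-in, was at 1786 ± 139 against 2111 ± 72.5 CPM, lower in 5 of 5 hashtags with no overlap, and did not pass (log2 fold −0.24 ± 0.08, adjusted p = 0.159). Crybb1 fell by 0.41, and did not pass without TAM1 (−0.40, adjusted p = 0.139), TAM2 (−0.36, adjusted p = 0.127) or TAM4 (−0.36, adjusted p = 0.330). Genes of the neuron navigator family fell too, Nav3 to 1130 ± 185 CPM from 1722 ± 202 CPM (log2 fold −0.60 ± 0.08, adjusted p = 1.72e-10) and Nav2 by 0.39. Csmd3 fell by 0.51 and the Notch regulator Numb by 0.43, all in 5 of 5 hashtags and with no overlap. Of all 10292 tested genes, 217 were lower in TAM positive cells with no overlap of hashtags, most of which did not pass. Pecam1, an adhesion molecule of vessels and leukocytes, fell by 1.67 from 35.0 CPM, and did not pass without TAM5 (−1.31, adjusted p = 0.143).

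Few cell cycle genes passed in TAM positive cells, but 2 of the 7 tested mitosis genes outside the rule did. Of 15 tested D and E cyclins, their kinases and inhibitors, Rbl2, a pocket protein that represses E2F targets, rose (0.73 ± 0.19, adjusted p = 0.0118) and Ccnd3, the gene of cyclin D3, fell (−0.31 ± 0.09, adjusted p = 0.0375). Rbl2 did not pass without TAM3, TAM4 or TAM5 (0.61, 0.72 and 0.69), and Ccnd3 did not without TAM1, TAM3, TAM4 or TAM5 (−0.30 to −0.33). Cdkn1b, the p27 inhibitor gene, had a log2 fold of −0.01 (adjusted p = 0.997). None of 11 DNA replication genes passed. Of 7 tested mitosis genes that the rule had not used, Cenpf, a kinetochore protein gene, was at 31.3 ± 14.5 CPM in positive and 5.50 ± 1.66 CPM in zero cells (log2 fold 2.35 ± 0.42, adjusted p = 5.33e-06), and Stmn1, a microtubule destabiliser gene, rose by 1.11. The median log2 fold of the 7 was 0.52, and 6 of them were positive. At an unadjusted p below 0.05 (edgeR) there were 4 of the 7, against 827 of all 10292 tested genes. The other 21 mitosis genes listed were not tested. Cenpf was found in 16 of 221 positive cells (7.24%) and 3 of those cells held 44.1% of its UMIs. Stmn1 did not pass without TAM3 (0.97, adjusted p = 0.111). Of 16 tested senescence-associated genes, Bcl2l1, which encodes the survival protein Bcl-xL, rose by 0.69 ± 0.14 with no overlap, and Plaur, the urokinase receptor gene, rose by 1.58 but not without TAM1 (1.21, adjusted p = 0.268). Their median was 0.29.

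**Figure D4:**
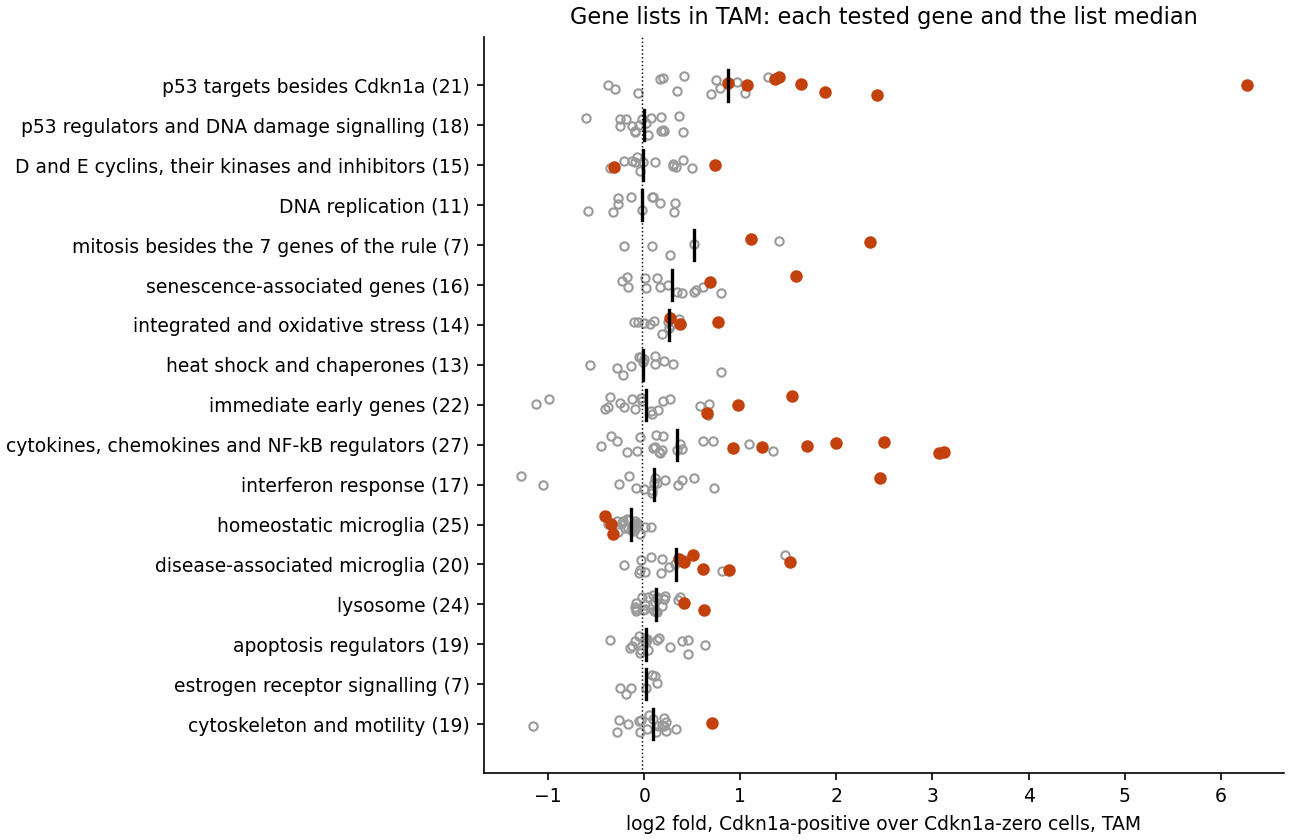
Log2 fold of each tested gene of 17 lists in TAM, nondividing Cdkn1a-positive over Cdkn1a-zero cells, with the number tested in brackets, genes that passed the edgeR test filled and the list median as a bar. The p53 targets have the highest median (0.87) and the homeostatic genes the lowest (−0.14), and 7 filled points lie in the chemokine list and 6 in the disease-associated list.

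Some chemokine and disease-associated genes rose in TAM positive cells, and most UMIs of Ccl4, Ccl3 and Ccl2 came from few cells. Of 27 tested cytokines, chemokines and NF-kB regulators 7 rose, among them Ccl4, Ccl3 and Ccl2, ligands that attract monocytes and lymphocytes (log2 folds 3.07, 2.0 and 2.50). Ccl4 was at 1830, 799, 111, 21.8 and 51.9 CPM in TAM1 to TAM5 against 30.9, 61.4, 113, 10.7 and 10.1 CPM in zero cells. TAM1 and TAM2 stood far above all zero cells, and TAM3 lay slightly below its own. In TAM1 the same cell held 228 of the 247 Ccl4 UMIs (92.3%), 57 of the 65 Ccl3 UMIs, 55 of the 57 Ccl2 UMIs and 65 of the 77 Ccl12 UMIs. Over all TAM positive cells Ccl4 was found in 15 of 221 (6.79%), and 3 cells held 86.7% of its UMIs. Ccl12 was spread more widely, in 61 of 221 (27.6%). Without TAM1 the log2 fold of Ccl4 was 1.69. Without TAM1 neither Ccl3 (0.55, adjusted p = 0.865) nor Ccl2 (0.96, adjusted p = 0.485) nor Ccl12 (0.41, adjusted p = 0.733) passed. Csf1, a growth factor for microglia, rose by 1.70 and Gadd45b by 3.11. Without TAM1 these were at 1.17 (adjusted p = 0.0783) and 2.66 (adjusted p = 0.153), and without TAM2 Gadd45b was at 1.77 (adjusted p = 0.697). Cd83, an activation marker, rose by 0.93, but not without TAM4 (0.71, adjusted p = 0.0877).

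Of 20 tested disease-associated genes 6 rose (Cd63, Lpl, Apoe, Ank, Lyz2 and Cd9), none fell and the median was 0.33. Apoe, which encodes a lipid carrier, was at 578, 1090, 308, 1870 and 700 CPM against 776, 693, 535, 451 and 685 CPM in zero cells, higher in 3 of 5 hashtags. It was found in 117 of 221 TAM positive cells (52.9%) and 42.9% of TAM zero cells. In TAM4 1 cell held 363 of the 601 Apoe UMIs, and without TAM4 the log2 fold turned from 0.41 to −0.17 (adjusted p = 0.928). Without TAM3 it was 0.68. Lpl, the lipoprotein lipase gene, rose by 1.52 and was at 0.62 without TAM4 (adjusted p = 0.928). Cd63, a lysosomal tetraspanin gene, rose by 0.61 ± 0.10 and was at 0.40 without TAM4 (adjusted p = 0.171). Ank did not pass without TAM2 or TAM4, Cd9 without TAM1 or TAM4, or Lyz2 without TAM5, at log2 folds of 0.68, 0.77, 0.30, 0.30 and 0.44.

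**Figure D5:**
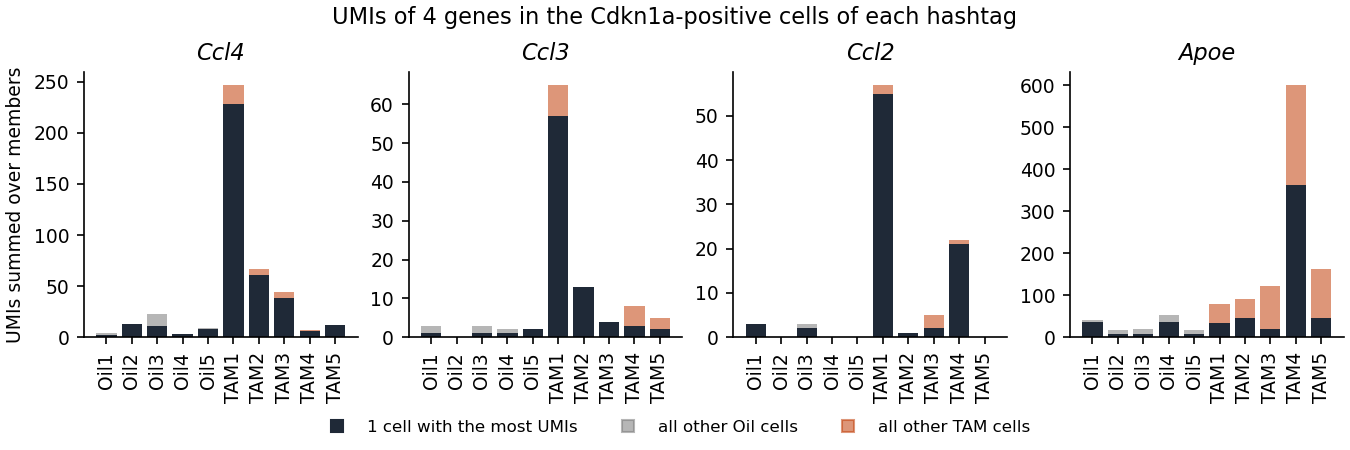
UMIs of Ccl4, Ccl3, Ccl2 and Apoe summed over the nondividing Cdkn1a-positive cells of each hashtag, with the part held by the single cell with the most UMIs in black and that of all others in grey (Oil) or orange (TAM). In TAM1 1 cell holds 228 of 247 Ccl4 UMIs, and in TAM4 1 cell holds 363 of 601 Apoe UMIs.

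In the remaining lists few genes passed in TAM. Of 14 tested genes of integrated and oxidative stress, the metallothionein gene Mt1 rose by 0.77 and the ferritin genes Ftl1 and Fth1 by 0.37 and 0.27. Mt1 did not pass without TAM4 (0.54, adjusted p = 0.404), nor Ftl1 without TAM1 (0.33) or TAM4 (0.28, adjusted p = 0.314). Fth1 did not pass without any single TAM hashtag or without Oil1, Oil3 or Oil4 (0.20 to 0.30). Of 22 immediate early genes Ier5 rose by 0.66 with no overlap, and Atf3 and Id2, which rose by 1.54 and 0.98, did not pass without TAM1 (0.92 and 0.55), nor Id2 without TAM2 (0.79). Of 24 lysosomal genes the proton pump genes Atp6v0c and Atp6v1a rose by 0.41 and 0.62, and neither passed without TAM1 (0.34 and 0.61) or TAM4 (0.34 and 0.72). Atp6v1a did not pass without TAM2, TAM3, TAM5, Oil1, Oil3 or Oil4 either (0.51 to 0.71). Of 19 cytoskeletal genes the thymosin gene Tmsb10 rose by 0.71, but not without TAM4 (0.64, adjusted p = 0.173). None of 13 heat shock genes, 19 apoptosis regulators outside the p53 list or 7 estrogen receptor signalling genes passed, with medians of −0.02, 0.02 and 0.02 and 1, 3 and 1 genes at an unadjusted p below 0.05 (edgeR).

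In Oil the same comparison rested on 58 cells and showed part of the p53 targets. Of 10292 genes 15 were higher (0.146%) and 10 lower (0.0972%) in positive cells. The median of all genes was −0.12 here. With scaling by library size alone it was 0.00, and 24 genes rose and 2 fell. Of the 21 p53 targets 3 rose (Phlda3, Bbc3 and Ccng1) and none fell, with a median of 0.30. Bbc3 was at 14.6, 86.1, 35.1, 59.8 and 110 CPM in Oil1 to Oil5 against 9.52 to 12.2 CPM (log2 fold 2.39 ± 0.48, adjusted p = 0.000695), and Ccng1 at 87.6, 103, 46.8, 59.8 and 78.4 CPM against 21.6 to 23.9 CPM (log2 fold 1.69 ± 0.39, adjusted p = 0.00945). Neither gene's hashtags overlapped. Bbc3 did not pass without Oil5 (1.99, adjusted p = 0.104), nor Ccng1 without Oil1 (1.6, adjusted p = 0.0989) or Oil2 (1.54, adjusted p = 0.0752). Phlda3 was found in 5 of 58 Oil positive cells (8.62%, exact 95% interval 2.86% to 19.0%) and 2 of 3700 zero cells (0.0541%, interval 0.00655% to 0.195%), and passed with an adjusted p of 0.000476, but not without Oil3 (adjusted p = 0.0851). Bax was at 142 CPM against 77.3 CPM (log2 fold 0.91 ± 0.25, adjusted p = 0.0730), while Mdm2 and Trp53inp1 had log2 folds of 0.15 and 0.30. A single UMI in the summed Oil positive cells of a hashtag stood for 12.3 to 18.7 CPM, against 2.47 to 12.6 CPM in TAM.

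None of the 10 genes that fell in Oil positive cells was among the 21 that fell in TAM, but of the 10 only Ppm1h passed the test of the difference between the treatments. Csmd3 and Csf1r, which fell in TAM, had log2 folds of −0.32 and −0.33 in Oil (adjusted p = 0.0521 and 0.0530). Tmcc3 fell by 0.70 ± 0.12 (adjusted p = 7.81e-06), and the sialic acid receptor gene Siglech fell by 0.50 ± 0.10 from 1820 to 1291 CPM (adjusted p = 0.000476). The transcription factor gene Mef2a fell by 0.44, the integrator subunit gene Ints6l by 1.02, the phosphatase gene Ppm1h by 0.74 and Cst3, the gene of cystatin C, by 0.32. Mef2a and Cst3 did not pass without some hashtags (Mef2a without Oil1 or Oil4, Cst3 without Oil2 or Oil3, at −0.42, −0.41, −0.29 and −0.30). Siglech was lower in 5 of 5 TAM hashtags too, with a log2 fold of −0.27 (adjusted p = 0.0616). Of the 25 genes called in Oil and the 99 called in TAM, 10 were shared (10 of 25 and 10 of 99), all higher: Bbc3, Ccng1, Phlda3, Cd63, Cd83, C5ar1, Exoc4, Prkg1, Gm42047 and D630023F18Rik. Outside the p53 list, Gm42047 in Oil rested on 22 UMIs in 10 cells and did not pass without Oil4 (2.67, adjusted p = 0.177), nor did Exoc4 (0.44, adjusted p = 0.269) or D630023F18Rik (4.31, adjusted p = 0.452). Exoc4 did not pass without Oil3 either (0.55, adjusted p = 0.0610). Cd63 did not pass in Oil without Oil1 (0.44) or Oil3 (0.45), nor Cd83 without Oil3 (0.33, adjusted p = 0.824). Of the 78 genes that rose in TAM 61 had a positive log2 fold in Oil, and of the 21 that fell 19 had a negative one. Most tested genes had a negative log2 fold in Oil, where 3844 of all 10292 had a positive one.

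The difference between the TAM and the Oil comparison was itself tested, and no p53 target passed. Of 10292 genes 7 had a higher log2 fold in TAM (0.068%) and none a lower one: Ccl4, Ccl3, Ccl2, Apoe, Ier5, Ppm1h and Myo1e. For Phlda3, found in 5 positive cells in Oil, the log2 folds were 6.28 ± 0.51 in TAM and 6.38 ± 1.25 in Oil (adjusted p of the difference 0.987), and for Bax the difference was 0.49 ± 0.27. For Mdm2 it was 0.72 ± 0.33 (adjusted p = 0.780) and for Trp53inp1 1.58 ± 0.50 (adjusted p = 0.553). Among the 7, the difference of Ccl4 fell from 2.75 to 1.39 without TAM1 and still passed (adjusted p = 0.00662). Without TAM1 the differences were 0.95 for Ccl3, 1.16 for Ccl2 and 1.47 for Myo1e (adjusted p = 0.907, 0.907 and 0.771), and without TAM4 that of Apoe was 0.16 (adjusted p = 0.984). Ccl3 also did not pass without Oil2 (2.10), Ccl2 without Oil2, Oil4 or TAM4 (2.35 to 2.46), Apoe without Oil3 or Oil5 (0.53 and 0.60) and Myo1e without TAM4 or any Oil hashtag but Oil3 (2.17 to 2.30). Ppm1h was at 226 CPM in Oil positive cells against 381 CPM in Oil zero cells, and at 435 against 412 CPM in TAM (difference 0.86 ± 0.20, adjusted p = 0.0182). Ier5 was at 232 against 149 CPM in TAM and at 254 against 300.0 CPM in Oil (difference 0.91 ± 0.20, adjusted p = 0.0182). Neither passed without TAM1, TAM4, TAM5, Oil2 or Oil4, at 0.81 to 0.87 for Ppm1h and 0.85 to 0.92 for Ier5, and Ier5 did not without Oil3 (0.81). No gene passed without the hashtag block or in DESeq2 (734 and 273 genes at an unadjusted p below 0.05, against 617 in edgeR with the block).

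Positive cells of the treatments were also set against each other directly. Of 1681 genes tested 8 were lower (0.476%) in TAM than in Oil positive cells and 1, Ppm1h, was higher (0.85 ± 0.17, adjusted p = 0.00944). The AP-1 gene Jun was at 1610, 1500, 738, 613 and 753 CPM in Oil1 to Oil5 and at 555, 477, 229, 202 and 182 CPM in TAM1 to TAM5, with no overlap (log2 fold −1.91 ± 0.28, adjusted p = 0.000108). In each treatment the Xist-low hashtags (Oil1 and Oil2, TAM1 and TAM2) were the highest. Junb, Jund and Btg2 fell by 1.76, 1.27 and 1.63. The histone H3.3 gene H3f3b, Zfand5, the G protein regulator gene Rgs2 and the microRNA host gene Mir142hg fell by 0.68, 1.12, 0.67 and 0.73. The 8 genes were lower in the TAM zero cells too, where Jun, Junb, Jund and Btg2 had log2 folds of −1.92, −1.44, −1.10 and −1.63, and H3f3b, Zfand5, Rgs2 and Mir142hg of −0.72, −0.95, −0.52 and −0.87. Ppm1h had one of 0.11 there (adjusted p = 0.333). H3f3b did not pass without TAM2, TAM3, TAM4, TAM5, Oil1, Oil3 or Oil5 (−0.70 to −0.52), nor Zfand5 without TAM3, TAM4, TAM5, Oil1, Oil3 or Oil5 (−1.13 to −0.93). Rgs2 did not pass without TAM4, TAM5 or Oil1 (−0.65 to −0.57), nor Mir142hg without TAM3, TAM4 or TAM5 (−0.70 to −0.68). Of the 4 p53 targets tested between the positive cells of the treatments, Btg2 was the only one that passed.

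Dividing cells, most of which carried Cdkn1a too, are given for comparison as sums over all TAM cells at or above the division limit, with no test. Phlda3 was at 83.3 CPM in the 44 dividing TAM cells, Bax at 219, Rps27l at 261, Mdm2 at 150 and Inka2 at 61.1 CPM, each of them above the mean of the nondividing TAM cells with 0 Cdkn1a UMIs. Summed likewise over nondividing TAM cells with 5 or more Cdkn1a UMIs, they were at 59.3, 268, 228, 147 and 39.5 CPM. Trp53inp1, Bbc3, Ccng1 and Aen were at 47.2, 36.1, 94.4 and 52.7 CPM in dividing cells, against 134, 59.3, 101 and 48.3 CPM in those cells. The division-linked Cenpf and Stmn1 were at 597 and 1370 CPM in dividing cells. In nondividing TAM cells with 5 or more Cdkn1a UMIs, summed likewise, they were at 30.7 and 63.7 CPM. Gm42047 was at 477 CPM in dividing cells and at 147 CPM in those nondividing cells.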

How the data were processed

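Gene expression and hashtag reads were counted as UMIs per feature and cell with Cell Ranger 7 against mm10, per the submitters' processing notes (version 7.0.0 per the file headers), and the deposited values are unnormalized counts. The deposited matrix held 51821041 gene UMIs in 9975 barcodes. Hashtags were assigned with Seurat 5.3.0 (HTODemux on centred log-ratios, quantile 0.99) in R 4.3.3, leaving out 3 barcodes with no hashtag UMI, which gave 8097 singlets, 1695 doublets (17.0%, left out) and 183 without a hashtag. No other doublet caller was run, and no barcode was repeated in the library. Singlets with at least 500 genes, 1000 UMIs and at most 10% mitochondrial UMIs were kept. No stated cell filter was at hand to compare with.

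Counts were summed per hashtag for the members and for the Cdkn1a-zero cells, and tested with edgeR 4.0.16 (quasi-likelihood, TMM factors, its filter on low counts) with the hashtag as a block, and the treatments with each other without one. In the tests against zero cells, the filter kept a gene that reached a set level in enough sums of either class. A gene nearly absent from zero cells was thus tested only where positive cells carried enough of it. The block needs no check of pairing, since members and zero cells of 1 hashtag are the same sample. P-values were adjusted by Benjamini and Hochberg over all genes tested. An SE is the log2 fold divided by the root of the test's F. Cells were clustered with scanpy 1.11.5 (Leiden, resolution 0.5, 30 components, 2000 variable genes). Gene positions are from GENCODE on GRCm38 and promoters from RefSeq, and the motif settings were chosen after the results were seen. DESeq2 1.42.0, other scalings, filters, thresholds, matched or thinned cells and left-out hashtags were alternatives.

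The members and the gene lists were chosen with earlier results of these data known. Genes named are Trp53, Mdm2, Ccng1, Cdkn1b and Cx3cr1, the 10 each way with the smallest p in TAM that moved alike in every hashtag, 5 each way in the other comparisons, and up to 3 per list. Further genes named, such as Gm42047, D630023F18Rik, Gm13067, Ephx1 and the listed genes beyond the third of a list, were chosen after their values were seen. Cdkn1a and the 7 division genes set the rule and were not tested.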

Additional observations from a re-analysis of the deposited data

Results flagged for a closer look

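In 6 of 77 groups of 5 hashtags examined, 1 hashtag stood far from the other 4, where chance gives about 1 in 20. In positive cells Ccl12 was at 570 CPM in TAM1 (next highest 106 CPM), where 1 cell held 65 of its 77 UMIs, and Ccl2 was at 422 CPM in TAM1 (next 68.5 CPM), where 1 cell held 55 of 57. Gm42047 was at 224 CPM in Oil4 (next 58.5 CPM) and at 208 CPM in TAM4 (next 104 CPM). Nav2 was at 1790 CPM in TAM3 (next 1470 CPM), and Crybb1 was lowest in TAM4, at 180 CPM (next lowest 286 CPM).

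For 7 genes the TAM and Oil comparisons of positive with zero cells differed by the test of the difference itself (edgeR, adjusted p below 0.05). The differences of log2 folds were 2.75 for Ccl4, 2.37 for Ccl3, 2.68 for Ccl2, 2.28 for Myo1e, 0.72 for Apoe, 0.91 for Ier5 and 0.86 for Ppm1h. In TAM1 1 cell held 36 of the 40 Myo1e UMIs. The difference for Ppm1h came from its low level in Oil positive cells, 226 CPM, with 234, 207, 246, 224 and 220 CPM in Oil1 to Oil5.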

How the results depend on the processing

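The count of genes past the threshold in TAM (99) was 43 in DESeq2, 38 with cells thinned to 2000 UMIs, 35 with zero cells matched on depth, 57 in female (Xist-high) hashtags alone and 17 for cells with exactly 1 Cdkn1a UMI, and ranged from 56 to 113 with 1 hashtag left out. In Oil (25) it was 11, 135, 13, 15 and 2 under the same settings, 74 without a filter on low counts and 12 without a replicate block, and ranged from 22 to 40. With thinned cells 129 of the 135 were lower. For the difference (7) it was 0 in DESeq2 and without the replicate block, 3 thinned, 1 matched, 3 in female hashtags, 2 for exactly 1 UMI and 2 scaled by library size alone, and ranged from 2 to 8. Between the positive cells of the treatments (9) it was 15 under a stricter hashtag assignment and 41 without a filter, and ranged from 6 to 13. There, same-numbered hashtags of the treatments correlated at 0.04 to 0.18. Differently numbered ones were not correlated, so these values cannot tell whether the number pairs them. Hashtags 1 and 2 were Xist-low and 3 to 5 Xist-high in both treatments. With the number as a replicate block 11 genes passed, and with sex (from Xist) as a covariate 10 did. The mean share in Oil was 0.783% thinned and 0.806% at 3 or more Cdkn1a UMIs. Apoe turned to −0.174 in TAM without TAM4 (0.682 without TAM3), Ccl3 to −0.299 in TAM and −0.311 in the difference and Ccl4 to −0.145 in the difference in female hashtags, and Rbl2 (TAM) to −0.064 and Cd63 (Oil) to −0.086 for exactly 1 UMI. None of these 6 passed, and their causes were not tested. Of 60 named genes called in TAM, D630023F18Rik, Gm13067, Gm42047, Inka2 and Phlda3 passed in every setting in which they were tested, the other 55 not. A fit for 3 or more UMIs was not run in Oil, where hashtags then held fewer than 10 cells.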
